A study of Mus musculus with 1646 samples.

Results

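The 10 genes studied here belong to the elastic fibre and the fibulin family and were followed through single cells of the mouse colon: Fbln1, Fbln2, Fbln5, Efemp1, Efemp2, Eln, Fbn1, Fbn2, Emilin1 and Mfap5. They were taken by name as known genes of the elastic fibre and its relatives, with earlier results of these data known, and all 10 were found among the 46517 genes of the count table. The table holds 1646 cells, each sequenced as its own SmartSeq2 library, from males aged 10 to 20 weeks of 4 reporter lines on 9 plates. PdgfrbGFP mice gave 761 cells on 4 plates, PdgfraGFP mice 13.8% of the cells on 2 plates, Acta2GFP mice 567 cells on 2 plates and Cspg4dsRED mice 91 cells on 1 plate. All lines were on a C57Bl6/J background, and all cells were sorted as negative for the endothelial marker CD31 and positive for a reporter or an antibody against a mesenchymal surface protein. PdgfraGFP is a nuclear green protein knocked into Pdgfra, while the other reporters are transgenes driven by the promoters of Pdgfrb, Acta2 and Cspg4. Tissue from Acta2GFP mice was digested with elastase in addition to the common enzymes.

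Each cell carries the number of its cluster in the labels, and the cluster names used here are those of the study. Cluster 7 (13.5% of the cells) holds fibroblasts of the crypt base, cluster 5 (25.8% of the cells) those from base to middle, cluster 1 (29.3% of the cells) those of the middle, cluster 6 (45 cells) those from middle to apex and cluster 2 (7.96% of the cells) those of the apex under the surface epithelium. Cluster 4 (8.63% of the cells) holds pericytes, cluster 3 (8.57% of the cells) vascular smooth muscle cells and cluster 8 (56 cells) interstitial smooth muscle cells. The first 5 clusters are called fibroblasts (1307 cells) and the last 3 mural cells (20.6% of the cells) here. No label names a mouse, so the reporter line is the sample, and a p-value measures only the spread between lines, which is also a spread between plates.

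Elastic fibres give stretch and recoil to vessel walls, gut and skin. Cells first lay down microfibrils built of fibrillins (Fbn1, Fbn2) with associated glycoproteins such as Mfap5, and tropoelastin from Eln is then deposited on them and crosslinked by lysyl oxidases. Fibulin 5 (Fbln5) and fibulin 4 (Efemp2) bring tropoelastin and the crosslinking enzymes to the microfibrils, and Emilin1 lies where elastin meets the microfibril. Fibulins 1 and 2 (Fbln1, Fbln2) bind basement membranes, proteoglycans and elastic fibres, and Efemp1 (fibulin 3) is a secreted relative found in many loose connective tissues.

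The promoters of 7 members were in the RefSeq table used here (GRCm38.p6), which gave 11 windows; Eln, Mfap5 and Fbn2 had none. The 250 bases before the RefSeq start are shown for 3 members whose levels are followed below, Fbn1 and Fbln2, which were highest at the crypt base, and Emilin1, which was highest at the apex. In the GENCODE annotation, used here for exon lengths, Fbn1 starts at 125507993 (minus strand), Fbln2 at 91212455 and Emilin1 at 30913402. By that annotation the 3 windows lie inside the genes. The windows are written 5′ to 3′ on the gene's strand with the GC box (GGGCGG, or CCGCCC on the other strand) in capitals.
Fbn1 at chr2:125506439-125506688, minus strand: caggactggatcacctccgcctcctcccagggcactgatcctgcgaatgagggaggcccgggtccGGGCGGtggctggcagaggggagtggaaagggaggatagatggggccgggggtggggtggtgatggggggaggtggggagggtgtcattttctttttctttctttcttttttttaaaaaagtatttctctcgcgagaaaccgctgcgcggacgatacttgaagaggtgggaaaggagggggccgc
Fbln2 at chr6:91212514-91212763, plus strand: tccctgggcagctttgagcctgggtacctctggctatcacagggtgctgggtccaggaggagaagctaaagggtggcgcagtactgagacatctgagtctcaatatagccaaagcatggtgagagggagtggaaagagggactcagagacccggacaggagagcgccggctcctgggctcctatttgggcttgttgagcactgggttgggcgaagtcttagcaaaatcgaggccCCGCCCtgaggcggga
Emilin1 at chr5:30913536-30913785, plus strand: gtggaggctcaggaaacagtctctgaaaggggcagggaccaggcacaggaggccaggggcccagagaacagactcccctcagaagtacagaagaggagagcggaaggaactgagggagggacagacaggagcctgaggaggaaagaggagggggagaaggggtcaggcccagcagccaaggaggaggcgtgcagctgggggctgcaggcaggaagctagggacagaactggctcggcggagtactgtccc
The Fbn1 and Fbln2 windows each held 1 GC box and the Emilin1 window none, and 32.7% of all 32851 promoter windows of the table held at least 1. An E box (CANNTG) was found once in the Fbln2 window, once in the Emilin1 window and not in that of Fbn1, against 66.2% of all windows. The TATA box (TATAAA, or TTTATA on the other strand) was in none of the 11 windows and in 12.4% of all. These are matches of letters only.

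The deposited values are counts of reads per gene without molecular identifiers. A level here is the mean over the cells of a group within a line of counts per 500000 counts on genes, and a group's level is the mean ± SD over those lines that gave 10 or more of its cells. Totals ranged from 47598 to 1494292 counts on genes per cell with a median of 248628. The 4 fibroblast markers Pdgfra, Col1a1, Lum and Dcn summed to 4927 to 6027 in the fibroblasts of the 4 lines and to 437.6 to 1050 in the mural cells of 3 lines, while the mural markers Notch3, Mcam, Des and Rgs5 summed to 43.5 to 78.4 and to 1311 to 4435. Summed immune markers reached at most 6.02 and summed endothelial markers at most 13.6 in these classes. The study had removed cells with clear endothelial or immune signatures, so these low values were set in advance. Summed epithelial markers reached 20.6 in fibroblasts. Markers of interstitial cells of Cajal (Kit, Ano1) summed to 13.01 to 37.7 in fibroblasts and to 114.6 to 407.5 in mural cells. Exons of Efemp2, Eln, Fbn1 and Fbn2 overlap those of a gene on the other strand (Mus81, Gm30003, Gm9913 and Gm26507). Nothing states that strand was used in counting, and a share of their reads could belong to the partner. No gene passed 2 counts per base of exon in any cell among the 1595 genes with the highest counts in 1 cell. Efemp1 came as high as 1.05 and Fbln1 as high as 0.905 counts per base, and Fbn1 had the second highest count of all genes in 1 cell (5726). Between cells under 200000 counts and deeper cells, the mean level of Fbln1 was 2551 against 2142 in cluster 1, 2298 against 1929 in cluster 5 and 1103 against 1012 in cluster 7. Efemp1 had 1002 against 871 in cluster 7 but 655 against 716 in cluster 1, and Fbn1 had 1890 against 1869 in cluster 7 but 663 against 843 in cluster 5. Cells of all lines were pooled in these values, and the part of such a ceiling in the levels was not tested beyond them. The study's methods name a removal of doublets with samtools, after mapping and before counting, without saying what was removed. If these were reads at the same position, counts per base would be capped, and levels and fold changes of Fbln1, Efemp1 and Fbn1 could be too small.

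Per kilobase of exon, which allows genes to be compared, Fbln1 and Efemp1 were the most abundant members in fibroblasts, at 395.8 ± 119.1 and 311.1 ± 35.3 counts per 500000 (SD, n = 4 lines). Fbln2, Mfap5 and Fbn1 followed at 90.2, 80.7 and 58.9 counts per kilobase, then Emilin1 at 44.3, Efemp2 at 37.1, Fbln5 at 31.5 and Eln at 22.5. Fbn2 was the lowest, at 0.344 counts per kilobase. In mural cells Efemp1 was at 42.1 ± 51.7, Fbln1 at 24.9 ± 14.4 and Efemp2 at 24.2 ± 5.68 counts per kilobase (SD, n = 3 lines), and these differences were smaller than the spread of Efemp1 between lines.

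**Figure D1:**
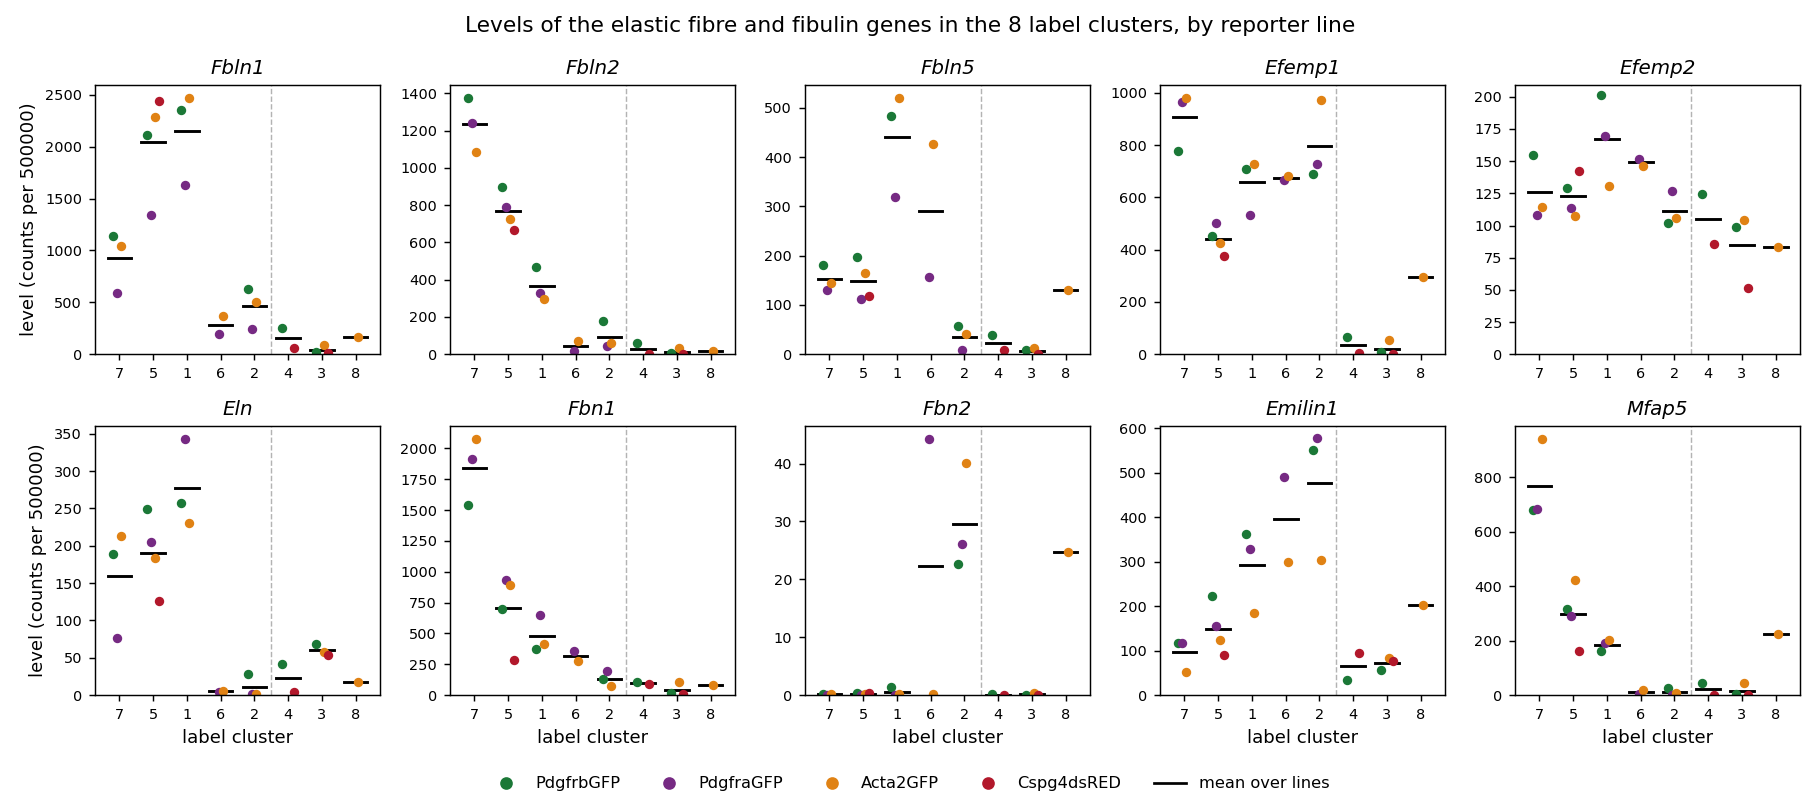
Level of each member (counts per 500000 counts on genes) in the 8 label clusters, ordered from crypt base (7) to apex (2) and then pericytes (4), vascular (3) and interstitial smooth muscle (8) after the dashed line. Each point is 1 reporter line with at least 10 cells of the cluster and the bar is the mean over lines, each panel having its own axis from 0. Fbn1, Fbln2 and Mfap5 are highest in cluster 7 and low in cluster 2, Emilin1 runs the other way, and the Efemp2 lines overlap at each step of its order.

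The first comparison asked which members set fibroblasts apart from mural cells, with the counts of each class summed within a line (4 fibroblast sums against 3 mural sums). Of the 10 members, 4 (Fbln1, Fbln2, Fbn1 and Eln) were called higher in fibroblasts at an adjusted p under 0.05 (edgeR quasi-likelihood test, Benjamini-Hochberg over 19173 genes) and none was called lower. Of all genes tested 6.57% were called, 3.21% as higher and 3.36% as lower in fibroblasts. The clusters were drawn by the study from the same counts, and Fbln1 and Fbln2 are on its own list of fibroblast markers, so the classes and these calls rest on the same data.

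Fbln1 had a level of 1979 in PdgfrbGFP, 973 in PdgfraGFP, 1824 in Acta2GFP and 2140 in Cspg4dsRED fibroblasts, against 153.5, 135.5 and 36.6 in PdgfrbGFP, Acta2GFP and Cspg4dsRED mural cells. The classes did not overlap, and the fitted difference was 4.35 on the log2 scale (SE 0.562, edgeR adjusted p = 0.00245), or 20.3-fold. Fbln2 lay between 415.6 and 732 in fibroblasts and between 1.54 and 37.4 in mural cells, a log2 difference of 4.85 (SE 0.935, edgeR adjusted p = 0.0144). The Cspg4dsRED mural cells were the lowest for both genes.

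Fbn1, the main fibrillin of adult microfibrils, had levels of 640, 669, 947 and 600 in PdgfrbGFP, PdgfraGFP, Acta2GFP and Cspg4dsRED fibroblasts and of 66.4, 88.98 and 53.7 in PdgfrbGFP, Acta2GFP and Cspg4dsRED mural cells. All fibroblast values were above all mural values, with a log2 difference of 3.47 (SE 0.414, edgeR adjusted p = 0.00171). Eln, which encodes tropoelastin, ran from 145.6 to 230.1 in fibroblasts and from 27.8 to 53.04 in mural cells, a smaller log2 difference of 1.79 (SE 0.307, edgeR adjusted p = 0.00881). Without the PdgfrbGFP line only Fbln1 and Fbn1 of these 4 remained called, and without the Acta2GFP line Fbln2 and Eln lost the call while Fbln5 gained it. These fits called 1.81% and 3.24% of all genes.

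The other 6 members did not pass. Efemp1 differed by 3.18 on the log2 scale (SE 1.06, edgeR adjusted p = 0.118), with 567 to 736 in fibroblasts and a wide spread in mural cells, from 2.77 in Cspg4dsRED through 50.1 in PdgfrbGFP to 204.3 in Acta2GFP. Fbln5 and Mfap5 showed the same wide mural spread, with the Acta2GFP value again highest (86.6 and 161.2), and log2 differences of 2.51 and 2.50 (edgeR adjusted p = 0.139 and 0.245). Most Acta2GFP mural cells were interstitial smooth muscle cells (52 of 84), a cluster in which these members are described further on. Emilin1 (1.00), Efemp2 (0.65) and Fbn2 (-0.37) had the smallest differences, with edgeR adjusted p = 0.292, 0.223 and 0.946.

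The median log2 difference of the 10 members was 2.50, beside -0.03 for all genes tested. A list of 25 other elastic fibre and microfibril genes, of which 24 could be tested (all but Emilin3), held 11 called genes, 10 higher and 1 lower in fibroblasts, with a median of 1.71. Adamtsl2, which binds fibrillin and latent TGF-beta complexes, had the greatest difference among the called genes (6.77, edgeR adjusted p = 0.0032), followed by Adamtsl3 (4.66, adjusted p = 0.0195) and Emilin2 (4.49, adjusted p = 0.0284). The 1 gene lower in fibroblasts was Thsd4 (-2.77, edgeR adjusted p = 0.0177), a microfibril-binding ADAMTS-like protein, named after its value was seen.

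**Figure D2:**
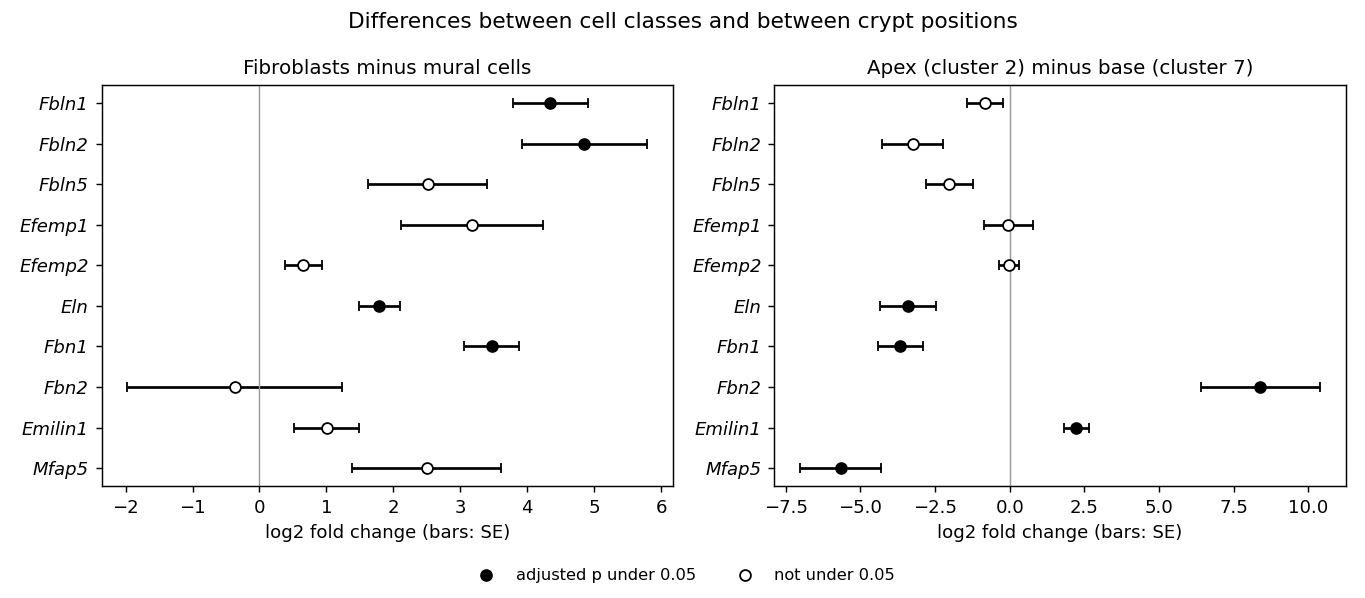
Log2 fold changes of the 10 members from the edgeR fits over summed counts, fibroblasts minus mural cells on the left and apex minus base fibroblasts on the right, with bars of 1 SE and filled points for an adjusted p under 0.05. On the left Fbln1, Fbln2, Eln and Fbn1 are filled and lie above 0. On the right Emilin1 and Fbn2 are filled above 0, and Eln, Fbn1 and Mfap5 are filled below it.

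Among fibroblasts the main question was how the members change along the crypt, from base (cluster 7) to apex (cluster 2), each with 3 lines. Of the 10 members 5 were called in the fit over all 21 sums of a cluster within a line: Fbn1, Mfap5 and Eln were lower at the apex, and Emilin1 and Fbn2 were higher. Of the 21739 genes tested 3.66% were called, 2.12% as higher and 1.55% as lower at the apex. The median log2 difference of the 10 members was -1.42, beside 0 for all genes tested.

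Fbn1 had a level of 1542 in PdgfrbGFP, 1911 in PdgfraGFP and 2080 in Acta2GFP cells of the base, and of 128.05, 192.5 and 75.997 in those of the apex. It fell by 3.66 on the log2 scale (SE 0.748, edgeR adjusted p = 0.0069). Mfap5, a microfibril glycoprotein that binds fibrillin, went from 678, 684 and 941 at the base to 27.7, 1.93 and 6.51 at the apex, and fell by 5.66 on the log2 scale (SE 1.35, edgeR adjusted p = 0.0204). In both genes the lowest base line was far above the highest apex line.

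Eln was lower at the apex in all 3 lines too, with 189.3, 76.3 and 213.5 at the base and 28.6, 1.26 and 1.36 at the apex in PdgfrbGFP, PdgfraGFP and Acta2GFP cells. The difference, -3.42 on the log2 scale (SE 0.941), had an edgeR adjusted p of 0.047, just under the threshold. Emilin1 rose from 118.3, 117.4 and 51.9 at the base to 551, 578 and 302.8 at the apex, by 2.23 on the log2 scale or 4.69-fold (SE 0.421, edgeR adjusted p = 0.00368). Its Acta2GFP values were the lowest in both clusters.

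Fbn2, the fibrillin best known from development, was called with a log2 difference of 8.40 (SE 1.98, edgeR adjusted p = 0.0188), but from very low values. It had 9, 1 and 8 counts in all PdgfrbGFP, PdgfraGFP and Acta2GFP base cells together, while its level at the apex was 22.6, 26.1 and 40.04. With so few base counts the size of the fold depends on the small count added by the fit. At the apex 9.16% of cells reached a level of 100. In the middle-apex cluster Fbn2 was at 44.3 in PdgfraGFP and at 0.266 in Acta2GFP cells, and the lines there lay far apart.

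Fbln2 had levels of 1376, 1243 and 1083 at the base and of 175.7, 44.6 and 61.9 at the apex in PdgfrbGFP, PdgfraGFP and Acta2GFP cells. Its log2 difference of -3.25 (SE 1.02) missed the threshold (edgeR adjusted p = 0.0904), although the 3 base and 3 apex values did not overlap. Fbln5 had a log2 difference of -2.02 (SE 0.774, edgeR adjusted p = 0.189). With the reporter line as a block, Fbln2 and Fbln5 passed as well (edgeR adjusted p = 0.0489 and 0.03), which makes 7 called members. That fit called 4.57% of all genes, beside 3.66% without the block. Fbln1 (-0.82), Efemp1 (-0.04) and Efemp2 (-0.03) had the smallest differences, and Efemp1 was high at both ends, at 908 ± 112.4 and 795 ± 153.6 (SD, n = 3 lines).

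The base-to-apex calls rest on few lines. Without the Acta2GFP line 1 member was called, Fbn1, and without the PdgfraGFP line 2 were, Fbn2 and Emilin1, while without the PdgfrbGFP line 4 were (Eln, Emilin1, Mfap5 and Fbln2). Without the Cspg4dsRED line 5 were called, with Fbln2 in place of Eln. Of all genes 0.70003%, 1.66%, 2.18% and 4.93% were called without the Acta2GFP, PdgfraGFP, PdgfrbGFP and Cspg4dsRED line, beside 3.66% with all lines. With cells under 200000 counts only, a single Acta2GFP sum was left for each of these clusters and no member was called, beside 31 of 17166 genes. Lists of base and apex markers moved between these clusters by design: Cd34, used for the base, was at 1293 in cluster 7 and 41.3 in cluster 2, and Tnc, Il1rl1 and Ptgs2, used for the apex, summed to 41.02 and 3335. In cluster 6 Cd34 was at 30.2 and the apex list at 469.3, beside 595.1 and 564.8 in cluster 1. On these lists cluster 6 does not lie between clusters 1 and 2. Marker lists of other cell types were also higher at the apex than at the base. The Cajal list (Kit, Ano1) summed to 0.97 in cluster 7 and 171.3 in cluster 2. The interstitial smooth muscle list summed to 37.3 and 316.3, and the smooth muscle list to 57.2 and 209.5. The Cajal list was at 294.985 in pericytes, 292.4 in vascular and 23.6 in interstitial smooth muscle, so it does not single out Cajal cells here. The smooth muscle list was at 205.05 in cluster 1 and 1189 in cluster 6, so its apex value is not particular to the apex. The part of these markers in the differences was not tested.

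Along the same axis 6 of the 24 tested genes of the elastic fibre list were called, 1 higher and 5 lower at the apex. Adamtsl3 (-6.06) and Emilin2 (-5.25), a relative of Emilin1, had the greatest falls among the called genes (edgeR adjusted p = 0.0149 and 0.0183). Thsd4 was higher by 4.05 (edgeR adjusted p = 0.0162). The crosslinking enzyme Lox, named after its value was seen, fell by 2.27 (edgeR adjusted p = 0.0267).

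Neighbouring clusters along the axis were compared next. From base to base-middle (cluster 5 against 7) no member was called, beside 3 of all genes or 0.0138%, and no member had an unadjusted p under 0.05; DESeq2 called 0.856% of genes and 1365 genes had an unadjusted p under 0.05 in the edgeR fit. From base-middle to middle (cluster 1 against 5) none was called, beside 0.184% of genes, and Fbln5 (1.53) and Emilin1 (0.89) had an unadjusted p under 0.05 (0.0398 and 0.0284, adjusted p = 0.627 and 0.592). From middle to middle-apex (cluster 6 against 1) Eln was the only called member, beside 0.791% of genes. From middle-apex to apex (cluster 2 against 6) none was called, beside 0.957%. DESeq2 called 1.403% of genes in the step from 5 to 1 and 8.97% in that from 6 to 2, Fbln5 being the only member among them in the second and no member in the first.

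Eln had a level of 257.6, 343.4 and 230.7 in PdgfrbGFP, PdgfraGFP and Acta2GFP cells of the middle, and of 4.34 and 5.96 in PdgfraGFP and Acta2GFP cells of the middle-apex cluster. It fell by 6.17 on the log2 scale at this step (SE 1.30, edgeR adjusted p = 0.0325), where all genes had a median of -0.47. The 4 smooth muscle markers were also higher, with a summed level of 205.05 in cluster 1 (93.3 to 306.3 by line) and 1189 in cluster 6 (590.2 to 1788), and their part in the difference was not tested. The call rests on 38 and 29 counts of Eln in the 2 middle-apex sums. The call was lost without the Acta2GFP line, without the PdgfraGFP line and with cells under 200000 counts only. It was also lost with sums of at least 3 cells, which brought in 9 PdgfrbGFP cells and a mean middle-apex level of 27.7. Fbn2 (4.41), Mfap5 (-4.01), Fbln2 (-3.70) and Fbln1 (-2.78) had large differences at the same step, Fbn2 in the other direction, that missed the threshold (edgeR adjusted p = 0.254, 0.24, 0.186 and 0.101). Fbln1 was called in 6 of 11 alternatives, among them sums of at least 3 cells, where it was the 1 called member, and with cells under 200000 counts only the 1 called member was Fbn2. In shallow cells a single middle-apex sum was left, of 11 PdgfraGFP cells, which was taken to vary like the other groups.

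Of the elastic fibre list 3 of 24 tested genes were called in the step from middle to middle-apex, all lower: Ltbp1 (-3.72) and Ltbp4 (-1.89), which bind latent TGF-beta to microfibrils, and Adamts10 (-3.04), a metalloproteinase (edgeR adjusted p = 0.000441, 0.047 and 0.0341). From middle-apex to apex 3 were called, Thsd4 (5.16) and Ltbp1 (2.90) as higher and Lox (-2.65) as lower at the apex (edgeR adjusted p = 0.0444, 0.00165 and 0.0403).

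Fbln5 had its highest mean level in the middle. Its level was 151.8 ± 26.2 at the base, 148.5 ± 40.6 from base to middle, 440.9 ± 107.4 in the middle, 291.4 ± 190.7 from middle to apex and 35.9 ± 24.6 at the apex (SD over 3, 4, 3, 2 and 3 lines). The lines of cluster 1 and cluster 6 overlapped, and neither the step from cluster 5 to 1 nor that from cluster 1 to 6 (-0.34) passed the test (edgeR adjusted p = 0.627 and 0.912). The last step, from 156.6 and 426.3 in PdgfraGFP and Acta2GFP cells to 56.9, 8.83 and 41.9 in PdgfrbGFP, PdgfraGFP and Acta2GFP cells, had a log2 difference of -3.14 (SE 0.85, edgeR adjusted p = 0.084). With the reporter line as a block it passed (-3.50, edgeR adjusted p = 0.0162), beside 1.13% of all genes. Summed smooth muscle markers also fell at this step, from 1189 in cluster 6 to 209.5 in cluster 2. Those of interstitial smooth muscle rose from 121.1 to 316.3. The part of these markers in the difference was not tested.

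The order of the clusters differed between members. Fbln2 stood in the order 7, 5, 1 with no overlap of lines between neighbours, and then 2, 6, 4, 8 and 3 with overlap at each step. Fbn1 and Mfap5 also led in cluster 7, each with all base lines above all lines of the next cluster. Fbln1 had its top values in clusters 1 (2152 ± 457.5) and 5 (2043 ± 488), whose lines overlapped, and both lay above the base (925 ± 296.6, SD, n = 3, 4 and 3 lines). In Emilin1 all neighbours in the order 2, 6, 1, 8, 5, 7, 3, 4 overlapped. Efemp2 also overlapped at every step, from 167.3 ± 35.4 in the middle to 82.99 in interstitial smooth muscle.

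Single cells showed how these levels were made up. At a level of at least 100, 98.7% of base cells held both Fbn1 and Mfap5, and the share was 80% in cluster 5 and 43.7% in cluster 1. None of the 45 cells of cluster 6 and none of cluster 2 reached 100 for Mfap5, while 64.4% and 41.2% of them did so for Fbn1 alone. Eln and Emilin1 parted in another way: 33.6% of base cells held Eln alone and 13% Emilin1 alone at this level, whereas 80.9% of apex cells held Emilin1 alone and none Eln alone. Fbln1 and Fbln2 were held together by 94.2% of base cells, and Fbln1 alone by 1.35%, 10.8% and 27.3% of the cells in clusters 7, 5 and 1.

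**Figure D3:**
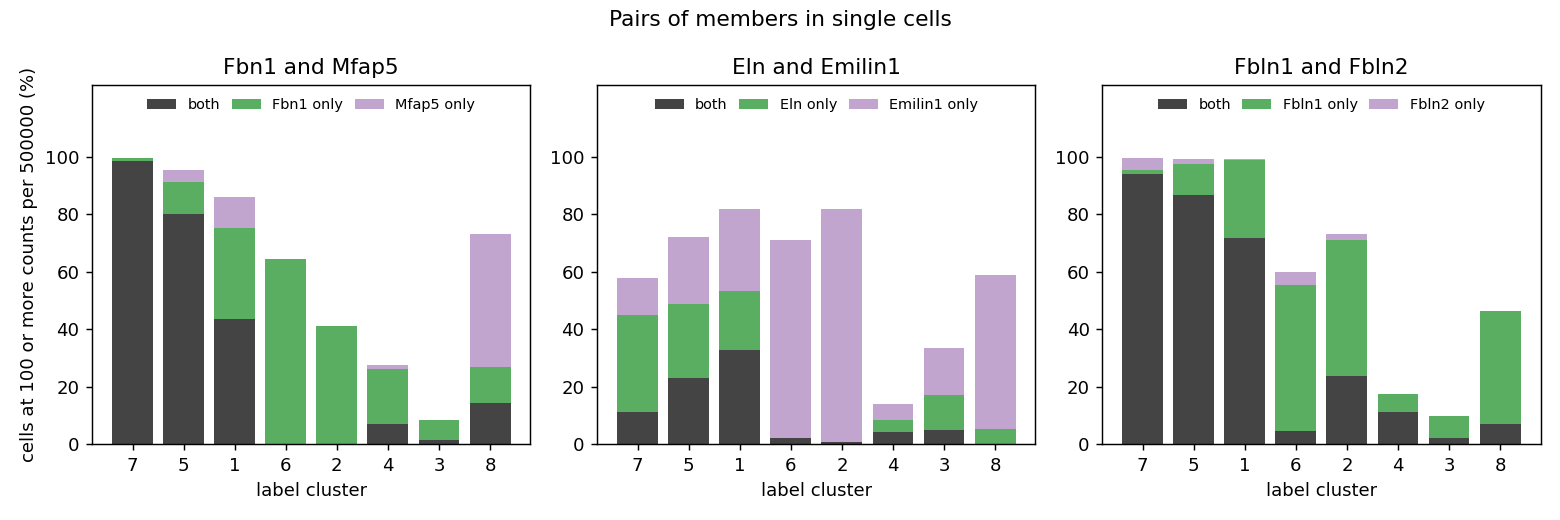
Share of cells (%) in each label cluster at a level of 100 or more counts per 500000 for both genes of a pair or for 1 of them only, ordered from crypt base (7) to apex (2) and then mural clusters 4, 3 and 8. The Fbn1 and Mfap5 pair goes from 98.7% of cells holding both in cluster 7 to 0 in cluster 2, and Emilin1 alone takes 80.9% of the cells in cluster 2.

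Shares of cells with any count say less, since depth differs and no identifiers remove duplicate reads. After thinning each cell to 50000 counts, which left out 11 cells, Fbn1 was found in all base cells and in 79.4% of apex cells (95% interval 71.4 to 85.96, Clopper-Pearson, counting error only). Mfap5 was found in 100% and 35.1%, and Eln in 81.8% and 26.7%. Fbn2 went the other way, from 1.36% (0.282 to 3.93) to 25.2% (18.02 to 33.5). In vascular smooth muscle cells, which stand here for cells low in Fbln1, Mfap5 and Fbn1, Fbln1 was still found in 49.3%, Mfap5 in 32.1% and Fbn1 in 34.3% of cells. The apex share of Mfap5 lies close to that of vascular smooth muscle, and the intervals overlap. Apex and vascular cells came mostly from different plates, so this likeness does not show that the apex counts are background. Eln was found in 47.9% of vascular smooth muscle cells, above its apex share, and these cells are no background for it.

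Of Fbln1, Fbln2, Fbn1, Mfap5 and Efemp1, the last had the base-to-apex difference nearest to 0. It was found in 99.5% of base and 99.2% of apex cells after thinning, and its median over single cells was 836 at the base, 340 in cluster 5 and 749 at the apex. The lower level in cluster 5 (439.1 ± 51.6, SD, n = 4 lines) lay under every line of clusters 7, 1, 6 and 2, yet the fitted differences from cluster 7 (-0.92) and to cluster 1 (0.53) did not pass (edgeR adjusted p = 0.982 and 1).

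In pericytes and vascular smooth muscle most members were low in the median cell and high in a minority of cells. In interstitial smooth muscle 71.4% of cells reached 100 for Efemp1, 60.7% for Mfap5 and 53.6% for Emilin1. The median pericyte had a Fbln1 level of 8.82, the lower quartile was 3.16, and the highest reached 5333, while the mean was 252.1 in PdgfrbGFP and 61.97 in Cspg4dsRED pericytes. The 25 pericytes at 100 or more had a median sum of the 4 fibroblast markers of 2907, against 893 in the other pericytes and 5474 in fibroblasts. For Fbn1 the 37 high pericytes had 2450 and the others 893, and for Fbln2 the 16 high ones had 3624 and the others 956. In vascular smooth muscle the 14 cells high in Fbln1 had 981 and the others 93.4. The markers of fibroblasts were thus higher in the mural cells that held these members. The level in a mural cell was also set beside the summed counts of the same gene in the wells of its plate row and column on the 6 plates with at least 10 mural cells. Spearman's rho averaged 0.43 for Fbln1 (-0.10 to 0.77 by plate), 0.45 for Fbln2 (0.31 to 0.68), 0.35 for Efemp1 (-0.13 to 0.61) and 0.27 for Fbn1 (-0.00097 to 0.56). These values are a description, and the part of doublets or of reads carried over between wells in the levels was not tested beyond them.

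Efemp2, Eln and Emilin1 behaved otherwise in vascular smooth muscle. The 49 cells at 100 or more for Efemp2 had a median fibroblast marker sum of 110.5, against 115.2 in the rest. For Eln 24 cells had 127.01 against 103.9, and for Emilin1 30 cells had 125.2 against 110.5. Pericytes high in these members did have higher sums than the rest: 1515 against 978 for Efemp2, 2863 against 1047 for Eln and 2613 against 1047 for Emilin1. Eln had a level of 68.6, 58.1 and 53.2 in PdgfrbGFP, Acta2GFP and Cspg4dsRED vascular smooth muscle cells, with no overlap with the pericyte lines at 42.3 and 4.72. The log2 difference between pericytes and vascular smooth muscle was -2.13 for Eln (SE 1.04, edgeR adjusted p = 0.405). No member was called between these clusters, beside 0.819% of all genes. At an unadjusted p under 0.05 there was 1 member (Fbln1) and there were 2756 genes, and DESeq2 called 1211 genes and no member. Of the elastic fibre list 3 genes were called, Loxl2 (4.47) and Ltbp4 (2.93) as higher and Ltbp1 (-2.17) as lower in pericytes (edgeR adjusted p = 0.00064, 0.000811 and 0.0143). The summed fibroblast markers were also higher in pericytes, at 1211 (733.5 to 1689.5 by line), than in vascular smooth muscle, at 328.5 (112.1 to 655.4). The part of these markers in the differences was not tested.

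Interstitial smooth muscle cells came, all but 4 of them, from the Acta2GFP line. Levels in the 52 Acta2GFP cells were 297.1 for Efemp1, 223.04 for Mfap5, 202.8 for Emilin1, 164.99 for Fbln1, 129.7 for Fbln5, 79.2 for Fbn1, 24.7 for Fbn2 and 17.3 for Eln. Against vascular smooth muscle Fbln5 was the only called member (4.93 on the log2 scale, SE 0.982, edgeR adjusted p = 0.0123), beside 1.01% of genes. Efemp1 (4.43) and Fbn2 (8.98) came close (edgeR adjusted p = 0.0524 and 0.0528), the latter from 2 and 3 counts in PdgfrbGFP and Acta2GFP vascular cells and none in Cspg4dsRED ones. The summed fibroblast markers were also higher, at 1051 in interstitial cells and 328.5 in vascular ones, and their part in these differences was not tested. The Fbln5 call was lost without the PdgfrbGFP line and with limma on means of log2 values. The single interstitial sum was taken to vary like the other groups. With the reporter line as a block Fbln5 was still called (4.72, SE 0.741, edgeR adjusted p = 0.00367). Within the Acta2GFP line alone, Fbln5 was at 129.7 in interstitial and 13.04 in vascular cells.

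Mfap5 and Fbn1 parted in these cells. Of the 56 interstitial cells 46.4% reached 100 for Mfap5 but not for Fbn1, 12.5% for Fbn1 alone and 14.3% for both. The 34 cells high in Mfap5 had a median fibroblast marker sum of 971, against 871 in the other 22, and for Efemp1 the 40 high cells had 899 against 929. For Fbn1 the 15 high cells had 1277 against 879, for Fbln1 the 26 high cells had 1230 against 787, and for Fbln5 the 22 high cells had 743 against 1027. The few cells high in Fbln2 (4) and Eln (3) had 2589 and 2398, against 886 and 893 in the others. From the elastic fibre list Loxl4 (7.94), Ltbp4 (4.13) and Loxl2 (3.71) were called as higher than in vascular smooth muscle (edgeR adjusted p = 0.0373, 9.69e-05 and 0.00399).

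Clusters 1 and 5 held enough cells on each plate to compare Acta2GFP with PdgfrbGFP mice over 2 and 4 plates. Line, elastase treatment and plate cannot be told apart here, and plates of a line may share mice. No member and none of 19722 genes was called in cluster 1 (0%), in cluster 5 (0%) or for the interaction of line and cluster (0%) by edgeR. At an unadjusted p under 0.05 there were 874, 734 and 492 genes, of which 2, 0 and 0 were members, and DESeq2 called 9, 32 and 4 genes and no member. The sums of both clusters come from the same plates, and with the plate as a block, chosen after seeing the data, the interaction also had 0 called genes, with an adjusted p of 1 for each member in edgeR. The block could not be used for the line itself, since each plate holds 1 line.

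Emilin1 and Mfap5 were the members with an unadjusted p under 0.05 in cluster 1, in opposite directions. Emilin1 had levels of 411.4, 342.6, 245.05 and 259.8 on the 4 PdgfrbGFP plates and of 162.1 and 208.96 on the 2 Acta2GFP plates, which did not overlap (log2 difference -0.79, SE 0.321, unadjusted edgeR p = 0.0257, adjusted p = 1). Mfap5 had 187.4, 143.4, 137.07 and 115.9 on the PdgfrbGFP plates and 181.99 and 221.7 on the Acta2GFP plates, which overlapped (0.73, SE 0.325, unadjusted edgeR p = 0.0401, adjusted p = 1). In cluster 5 the log2 differences were -0.54 for Emilin1 and 0.34 for Mfap5.

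**Figure D4:**
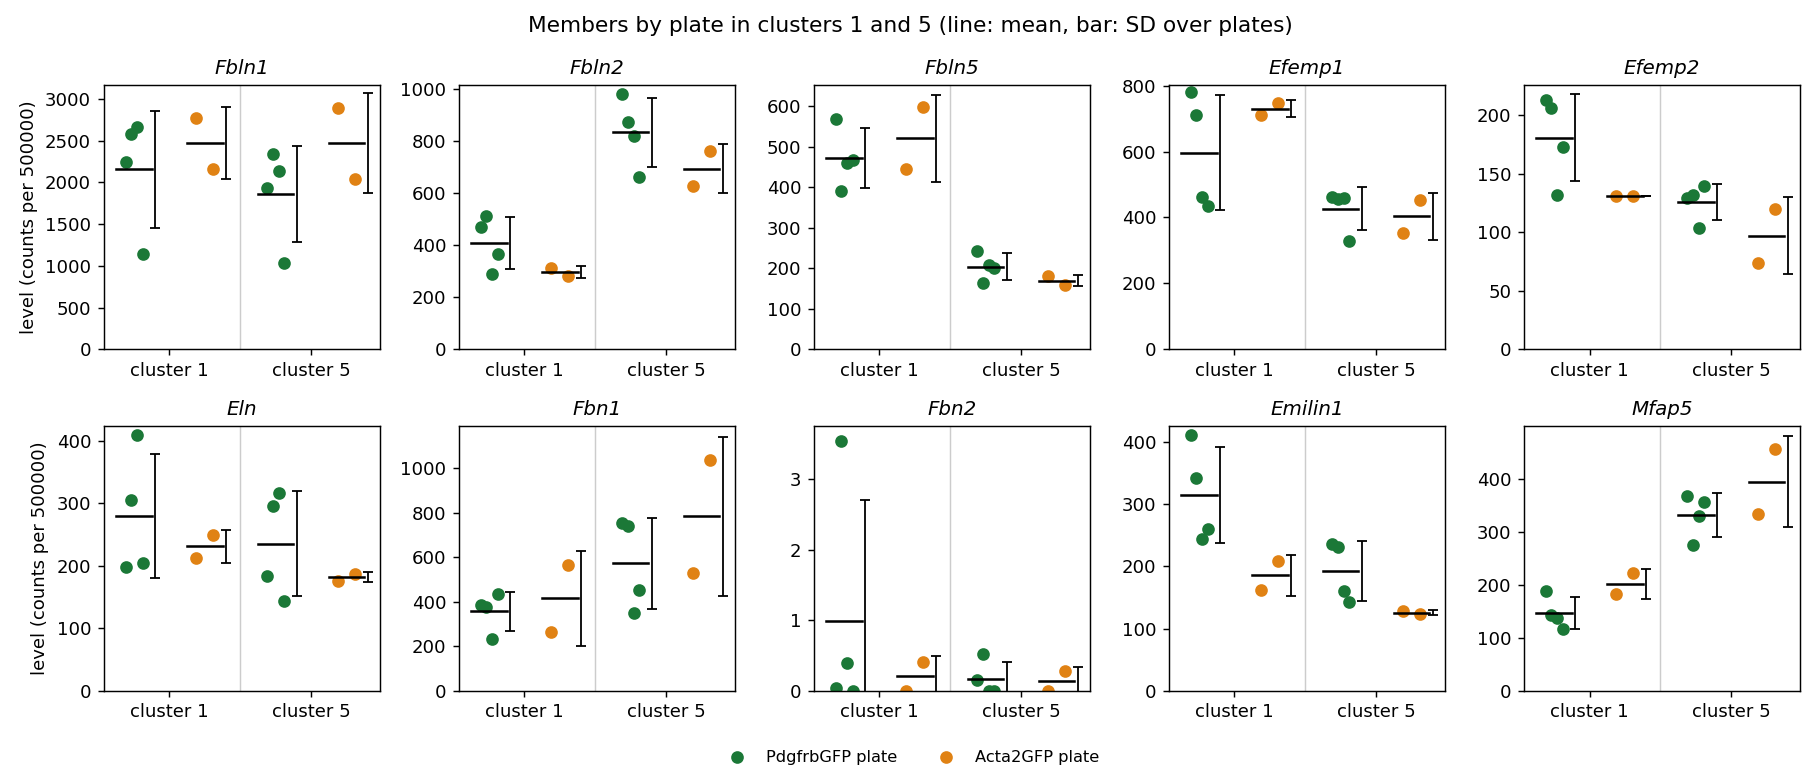
Level of each member (counts per 500000) by plate in clusters 1 and 5, for 4 PdgfrbGFP and 2 Acta2GFP plates with at least 10 cells, with the mean as a line and the SD over plates as a bar cut at 0. Emilin1 is lower on both Acta2GFP plates than on every PdgfrbGFP plate in each cluster, a difference that was not called, and the plates of most other members overlap.

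Plates of 1 line differed as well. Fbln1 had levels of 2243, 2584, 2666 and 1142 on the 4 PdgfrbGFP plates in cluster 1 and of 1938, 2344, 2136 and 1038 in cluster 5. The lowest value came from the same plate in both clusters, the one with 12 and 11 cells. Those cells held 10073353 and 12387297 counts on genes in all. On another PdgfrbGFP plate 19 and 18 cells held 2510485 and 5260350, so depth per cell differed between plates. The part of depth in the low values of the plate with 12 and 11 cells was not tested. Efemp1 was lowest on this plate in both clusters too, at 433.97 and 328.9. Mfap5 was lowest on it in cluster 1 (115.9) and within the range of the other 3 plates in cluster 5 (356.07), while Efemp2 lay within that range in cluster 1 (173.1) and above it in cluster 5 (139.4).

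Across the 21 sums of a cluster within a line the members fell into partly shared patterns. Pearson's r of log2(counts per 500000 + 1) was 0.905 for Fbln1 and Fbln2, 0.881 for Fbln2 and Mfap5, 0.866 for Fbln2 and Fbn1 and 0.839 for Fbln1 and Fbn1. Emilin1 was close to unrelated to Fbln2 (0.07) and Fbn1 (0.08), and Fbn2 ran against Eln (-0.69) and Mfap5 (-0.35). The 21 points share 4 lines, their plates and the enzymes used, so these values describe and do not test. Within single cells of a cluster this measure also differed: r for Fbn1 and Mfap5 was 0.797 over the sums, 0.494 over the cells of cluster 7, 0.337 over those of cluster 5, 0.158 over those of cluster 1 and 0.265 over those of cluster 2. In the apex cluster Eln and Mfap5 had an r of 0.643 over its cells, with a median level of 0.887 for Eln and 2.42 for Mfap5.

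The gene whose pattern over these sums was most like that of each member but Eln was taken from the 21739 tested. It was the serine protease Htra3 for Fbln1 (r = 0.957) and also for Fbln2 (0.968), Lpar1, a lysophosphatidic acid receptor, for Efemp1 (0.967), and Fmo2, a monooxygenase, for Mfap5 (0.953). For Fbn1 it was Rnase4 (0.930), for Fbln5 the metalloproteinase Mmp23 (0.897) and for Emilin1 Rgs17 (0.869), a regulator of G protein signalling. For Fbn2 it was Gm43539 (0.931) and for Efemp2 Gm17529 (0.846), the lowest r of those given.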

How the data were processed

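SmartSeq2 libraries of 1646 sorted colon cells were sequenced as 50-base single reads, and the deposited counts are whole reads per gene and cell. Per the methods, the authors used bcl2fastq, TopHat2 with Bowtie, a samtools step described as doublet removal, and featureCounts on GRCm38 (mm10), and removed poor cells and those with very many genes as potential doublets, after a generous doublet gate at the sort. The authors also removed cells without Pdgfra or Pdgfrb and cells with clear signatures of other types, such as endothelial or immune cells. Of 46609 features, 92 ERCC spike-ins (1.36% of counts) were left out, and 46005 of 46517 genes had a symbol. Depth ran from 47598 to 1494292 counts per cell. Intervals cover counting error only.

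Groups came from the labels. Levels are means over cells per line with at least 10 cells, scaled to 500000. Counts were summed per class or cluster within a line, or per plate for clusters 1 and 5, and tested with edgeR 4.0.16 (quasi-likelihood, Benjamini-Hochberg over all genes, threshold 0.05) in R 4.3.3. Alternatives were DESeq2 1.42.0, limma 3.58.1, no filter, sums of at least 3 cells, plates, a line block, each line or plate left out, and, chosen after seeing the data, cells under 200000 counts and a plate block. Tests were checked on simulated sums drawn without line or plate effects, with large changes in well counted genes only. That check does not cover the spread or pairing of the real sums. Members and lists were chosen with earlier results of these data known. All members were named, and from the elastic fibre list the 3 called genes with the greatest change per comparison. Since clusters of 1 line share its plates, lines pair the sums: same-line deviations of class sums correlated at 0.152 to 0.175 (3 pairs), while 19 of 43 cluster pairs were over 0.1. The labels name no mouse, so mice were not analysed here. The gene most like Eln in pattern is not reported here.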

Additional observations from a re-analysis of the deposited data

Results flagged for a closer look

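Of 40 groups of 4 lines or of 4 PdgfrbGFP plates examined, 2 held a value far from the other 3 (Dixon's criterion, which chance meets in about 1 of 20 groups). Efemp1 in cluster 5 was lowest on 1 PdgfrbGFP plate, at 328.9 counts per 500000, with 454.6 to 463.3 on the other 3 plates. It is the plate with 11 cells of this cluster, whose depth is given above. Fbn2 in cluster 1 was highest on another PdgfrbGFP plate, at 3.53 counts per 500000, with 0 to 0.391 on the other 3. That level rests on 1 cell at 309.4 counts per 500000, and without it the plate was at 0.246.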

How the results depend on the processing

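No log2 fold change of a member that was called changed sign under any alternative run. The 1177 values examined cover the members in every comparison, called or not. Of these, 1004 kept their call and direction, which for most meant staying uncalled, 51 gained the call and 25 lost it. The other 97 changed sign while called in neither setting. The 25 lost calls all fall on the few members called in the main fits (4, 5, 1 and 1, given next). Between fibroblasts and mural cells 4 members were called, 5 with DESeq2, 7 with limma, 7 with plates in place of lines and 2 to 4 with a line left out. Between apex and base 5 were called, 7 with the reporter line as a replicate block, 7 with plates, 6 each with DESeq2, limma, no filter and sums of at least 3 cells, 0 with shallow cells only and 1 to 5 with a line left out. From middle to middle-apex 1 was called, 5 with DESeq2, 2 without a filter, 2 with limma, 4 with plates and 0 to 3 with a line left out. From middle-apex to apex 0 were called, and 1 with DESeq2, 1 without a filter, 1 with the replicate block and 0 to 1 with a line left out. Between pericytes and vascular smooth muscle 0 were called, 1 with plates and 0 to 1 with a line left out. Between interstitial and vascular smooth muscle 1 was called, 2 with DESeq2, 3 without a filter, 5 with sums of at least 3 cells, 5 with plates and 0 to 2 with a line left out (the Acta2GFP line could not be left out). The other comparisons had 0 throughout. The block changed no other call of a member. Over all genes, edgeR called 6.57, 3.66, 0.791, 0.957, 0.819 and 1.01% in these 6 comparisons, DESeq2 15.3, 8.55, 7.70, 8.97, 5.57 and 5.14%, plates 16.1, 7.45, 3.84, 3.30, 2.70 and 3.84% and the block 3.08, 4.57, 0.860, 1.13, 0.994 and 1.07%. Limma called 6.62, 6.45, 1.80, 3.39, 2.95 and 3.71%, the fit without a filter 3.81, 2.67, 0.624, 0.735, 0.696 and 0.836%, sums of at least 3 cells 6.57, 4.23, 0.640, 0.635, 0.730 and 1.92%, shallow cells 4.06, 0.181, 0.326, 0.117, 0.565 and 0.722% and fits with a line left out 1.81 to 5.81, 0.70003 to 4.93, 0.0520 to 2.08, 0.0236 to 2.21, 0.226 to 0.974 and 0.485 to 1.64%. The causes were not tested. Of 160 levels 28 and of 100 shares 80 moved, the shares without thinning, and of 45 correlations 2 changed sign with a pseudocount of 5.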
